A study of Mus musculus with 12 samples.

Results

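The miR-148 and miR-152 family was followed through all 12 livers of the study as 4 mature miRs chosen by name, out of 1927 listed and 388 tested: mmu-miR-148a-3p, mmu-miR-148b-3p and mmu-miR-152-3p, and the other arm of the first hairpin, mmu-miR-148a-5p (the prefix mmu, for mouse, is left out from here on). All 4 passed the filter on low counts, and none shares an entry with another miR in the count table. The livers came from female fetuses at E18.5, 5 wild-type (WT) and 7 littermates that inherited a deletion of Mir483 from the father (Mir483Pat-KO), with 1 library per fetus. Mir483 lies within Igf2 and is imprinted, so that a deleted paternal copy removes nearly all of its product. The allele was targeted in C57BL/6N embryonic stem cells, Cre was used in culture to take out the selection marker, 2 clones were injected into blastocysts, and the line was kept on C57BL/6J. The loss is therefore constitutive and not limited to a liver cell type, and which clone each fetus descends from is not stated. In the libraries, miR-483-3p had 733 to 1281 counts in WT and 0 to 19 in Mir483Pat-KO, and miR-483-5p had 245 to 371 and 0 to 4.

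A mature miR is cut from a hairpin precursor, and either strand of the stem, the 5p or the 3p arm, can be loaded into an Argonaute protein. Bases 2 to 8 of the loaded strand, the seed, do most of the target recognition, so miRs that share a seed are treated as a family with overlapping targets. This family is known for repressing the maintenance DNA methyltransferase Dnmt1, and miR-148a is an abundant liver miR linked to the maturation of hepatoblasts into hepatocytes and to the control of the LDL receptor. Fetal liver at this stage also holds many blood-forming cells. In whole liver, fewer cells of a type and less of a miR per cell cannot be told apart.

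The shared seed defines the family and is shown first. In the RefSeq sequences on GRCm38.p6, the 3 shared-seed members are written 5′ to 3′ with bases 2 to 8 in capitals.
miR-148a-3p: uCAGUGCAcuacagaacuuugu
miR-148b-3p: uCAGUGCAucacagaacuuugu
miR-152-3p: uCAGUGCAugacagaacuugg
Of 1679 mature mouse miRs in that table, these 3 were the only ones with this seed. Counting positions from 1 at the 5′ end, miR-148a-3p and miR-148b-3p are identical at 20 of 22 positions and differ by C9U and U10C, with the base of miR-148a-3p first. Over 21 positions, miR-152-3p differs from miR-148a-3p by C9U, U10G and U20G and from miR-148b-3p by C10G and U20G. The members are thus separated by bases just past the seed and near the 3′ end. How the authors' counting dealt with reads carrying a mismatch at these bases could not be checked, so reads could in part be split between miR-148a-3p and miR-148b-3p.

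The 5p arms are shown because the arm comparison turns on them.
miR-148a-5p: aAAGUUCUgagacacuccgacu
miR-148b-5p: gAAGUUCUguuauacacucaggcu
miR-152-5p: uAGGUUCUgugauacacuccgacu
The first pair share the seed AAGUUCU, which no other miR of the table carries, while the seed of miR-152-5p is held by that miR alone. The 5p arms therefore do not form a single seed family, unlike the 3p arms.

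The 3 hairpins come from 3 chromosomes. Mir148a lies at chr6:51269812-51269910 on the minus strand, outside any other gene of GENCODE's GRCm38 annotation, and the nearest protein-coding gene is Nfe2l3, 162760 bases away. Mir148b lies at chr15:103285125-103285221 on the plus strand, in the intron after exon 1 of Copz1, which encodes a subunit of the COPI vesicle coat. Mir152 lies at chr11:96850393-96850465, also on the plus strand and in the intron after exon 1, in Copz2, the paralogue of Copz1. Both intronic hairpins are read in the direction of their host gene and overlap no exon of it. With the 5p and then the 3p arm in capitals, the RefSeq hairpins are as follows.
Mir148a: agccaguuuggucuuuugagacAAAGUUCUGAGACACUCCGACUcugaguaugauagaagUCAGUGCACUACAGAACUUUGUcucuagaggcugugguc
Mir148b: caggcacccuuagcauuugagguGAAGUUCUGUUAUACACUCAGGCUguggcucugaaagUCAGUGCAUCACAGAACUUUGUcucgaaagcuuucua
Mir152: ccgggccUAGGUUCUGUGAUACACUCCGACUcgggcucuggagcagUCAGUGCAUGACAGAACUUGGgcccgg

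The table holds whole-number counts of reads per mature miR, with totals of 658665 to 1211160 per library. Levels are given as CPM, counts scaled to one library total, after TMM scaling, which sets libraries on a common scale by their typical miR. A floor of 3 counts corresponds to 2.48 to 4.55 CPM by library size, far below every member. Such floors, like the Wilson intervals given later, hold counting error alone, since PCR copies are not independent molecules. Mature miRs are of nearly equal length, so CPM needs no length correction, but adapters ligate to different ends with different efficiency and an order of levels is an order of reads. Of the defining miRs for the labelled tissue, the hepatocyte miR-122-5p had 87298 to 187689 counts per library, whereas of the neural miRs miR-124-3p had 0 and miR-9-5p 14 to 356.

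miR-148a-3p was the most abundant member, the 36th of the tested miRs by median level. In WT it stood at 4373, 4013, 3921, 4313 and 3935 CPM in replicates 1 to 5. In the 7 Mir483Pat-KO livers the lowest value was 3693, the median 3990 and the highest 4590 CPM. The means were 4111 ± 216 CPM (SD, n = 5) and 4020 ± 305 CPM (SD, n = 7), and the genotypes overlapped. Its coefficient of variation was 5.25% in WT and 7.59% in Mir483Pat-KO, where counting alone would give 1.73%.

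miR-148b-3p, from the Copz1 intron, was at 1111, 1246, 1158, 1004 and 1431 CPM in WT replicates 1 to 5. Mir483Pat-KO ranged from 1111 to 1358 CPM with a median of 1245 CPM, all inside the WT range. The means were 1190 ± 161 CPM (SD, n = 5) and 1233 ± 101 CPM (SD, n = 7). WT replicate 5 was the highest of the 12 libraries and WT replicate 4 the lowest.

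miR-152-3p, from the Copz2 intron, was the scarcest member and the 167th of the tested miRs, with 86 to 178 counts per library. WT replicates 1 to 5 had 153, 171, 188, 160 and 170 CPM. Mir483Pat-KO had 134 CPM at the lowest, 156 at the median and 194 at the highest, a range that contains that of WT. The means were 168 ± 13.2 CPM (SD, n = 5) and 162 ± 22.7 CPM (SD, n = 7). Its coefficient of variation of 7.86% in WT and 14.0% in Mir483Pat-KO compares with 8.60% from counting alone, so much of its spread is at the resolution of the depth.

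**Figure D1:**
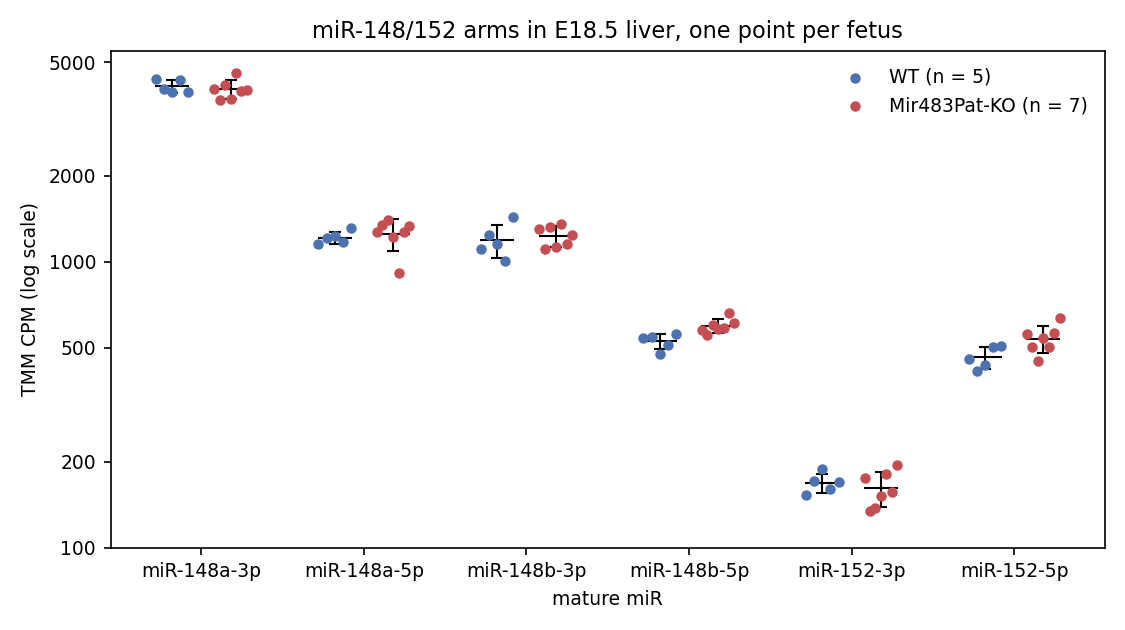
TMM CPM (log axis) of the 4 members and of the partner arms miR-148b-5p and miR-152-5p in each of 12 fetal livers, with the mean and SD of each genotype in black. The genotypes overlap for all 6 miRs, and the lowest miR-148a-5p point, 913 CPM, is a Mir483Pat-KO liver.

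The order of the shared-seed members was the same in all 12 libraries. miR-148a-3p exceeded miR-148b-3p by 1.74 ± 0.16 log2 units (SD, n = 12), a 3.35-fold difference in reads, and miR-148b-3p exceeded miR-152-3p by 2.89 ± 0.18 (SD, n = 12), or 7.39-fold. Both gaps were many times their spread between fetuses. With the 5p arms included the order was miR-148a-3p, miR-148a-5p, miR-148b-3p, miR-148b-5p, miR-152-5p and miR-152-3p. Neighbours miR-148a-5p and miR-148b-3p were not separated, at a mean difference of 0.025 ± 0.22 log2 units (SD, n = 12) and with miR-148a-5p the higher in 8 of 12 libraries. miR-148b-5p was above miR-152-5p in 11 of 12 libraries by a mean of 0.17 ± 0.14 log2 units (SD, n = 12), which is near the spread.

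Reads with the shared seed came mostly from 1 hairpin. The CPM of the 3 members summed to 5470 ± 137 (SD, n = 5) among WT livers and 5415 ± 409 (SD, n = 7) among Mir483Pat-KO livers, with ranges of 5267 to 5637 and 4938 to 6129. miR-148a-3p made up 75.1% ± 3.06 (SD, n = 5) of the sum in WT and 74.3% ± 0.728 (SD, n = 7) among Mir483Pat-KO livers. miR-148b-3p contributed 21.8% ± 2.92 (SD, n = 5) and 22.8% ± 0.656 (SD, n = 7), and miR-152-3p 3.09% ± 0.318 (SD, n = 5) and 2.99% ± 0.353 (SD, n = 7). The share of miR-148a-3p lay between 71.1% and 78.7% among WT livers and between 73.2% and 75.1% among Mir483Pat-KO livers, the largest share in every fetus. That of miR-148b-3p lay between 18.3% and 25.8% among WT livers and between 21.9% and 23.6% among Mir483Pat-KO livers. For miR-152-3p these ranges were 2.71% to 3.57% and 2.46% to 3.58%. These sums are described without a test, because they are scores over the chosen members.

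**Figure D2:**
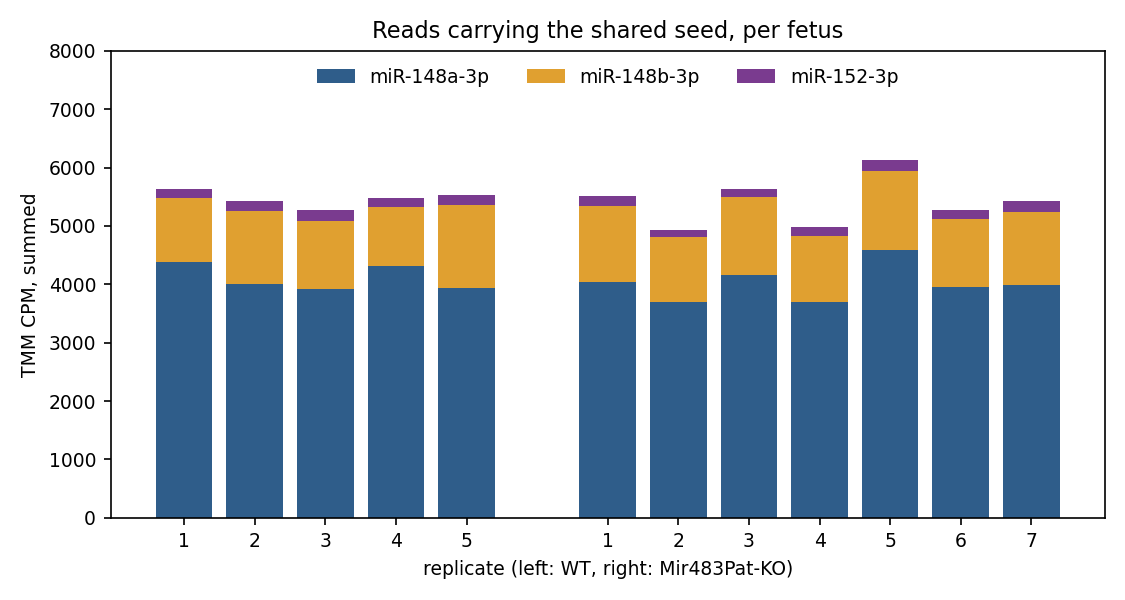
Stacked bars of TMM CPM of the 3 shared-seed members in each fetal liver, WT on the left and Mir483Pat-KO on the right, from an axis at 0. miR-148a-3p fills about the same large part of each bar, and the highest sum, 6129 CPM, is Mir483Pat-KO replicate 5.

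The 2 arms of the miR-148a hairpin were both well measured. miR-148a-5p was at 1159, 1214, 1230, 1172 and 1310 CPM in WT replicates 1 to 5, with a mean of 1217 ± 59.7 CPM (SD, n = 5). In Mir483Pat-KO the lowest value was 913, the median 1272 and the highest 1400 CPM, with a mean of 1251 ± 161 CPM (SD, n = 7). The ratio of 3p to 5p reads, which needs no scaling because both arms come from the same library, lay between 3.003 and 3.77 in WT and between 2.73 and 5.02 in Mir483Pat-KO. In all 12 libraries the 3p arm was ahead, and the 5p arm held 22.9% ± 1.70 (SD, n = 5) of the hairpin's reads in WT and 23.8% ± 3.30 (SD, n = 7) among Mir483Pat-KO livers.

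One liver stood apart in this ratio. In Mir483Pat-KO replicate 5, miR-148a-5p had 694 counts and miR-148a-3p 3489, so the 5p arm was 16.6% of the pair (95% Wilson interval 15.5% to 17.7%). The next lowest of the other 11 libraries was WT replicate 1 at 21.0% (95% Wilson interval 19.98% to 22.0%). This liver had both the lowest miR-148a-5p level and the highest miR-148a-3p level of all 12. A library was also counted as set apart by CPM when its gap to the nearest library, over the range of its genotype, passed a limit. That limit was 0.71 for WT and 0.568 for Mir483Pat-KO, so counts are not strictly alike between genotypes. Over all 388 tested miRs, this library was set apart for 3, miR-148a-5p among them, against 1 to 7 in the other libraries.

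The miR-148b hairpin had the same leading arm by a smaller margin. The 5p arm, miR-148b-5p, held 30.9% ± 2.37 (SD, n = 5) of the reads in WT and 32.7% ± 2.16 (SD, n = 7) among Mir483Pat-KO livers, and the 3p to 5p ratio was 1.96 to 2.56 in WT and 1.74 to 2.30 in Mir483Pat-KO. The miR-152 hairpin went the other way. miR-152-5p outnumbered miR-152-3p in all 12 libraries, with 73.3% ± 2.72 (SD, n = 5) of the reads in WT and 76.9% ± 1.85 (SD, n = 7) among Mir483Pat-KO livers, that is 2.74 and 3.33 reads of 5p for each read of 3p by the mean log2 ratio. The arm that carries the family seed was thus the minor product of this hairpin among the reads. Of 95 hairpins with both arms tested, 48 had more 5p than 3p reads in all 12 libraries and 32 more 3p than 5p, so neither order is unusual in these livers.

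**Figure D3:**
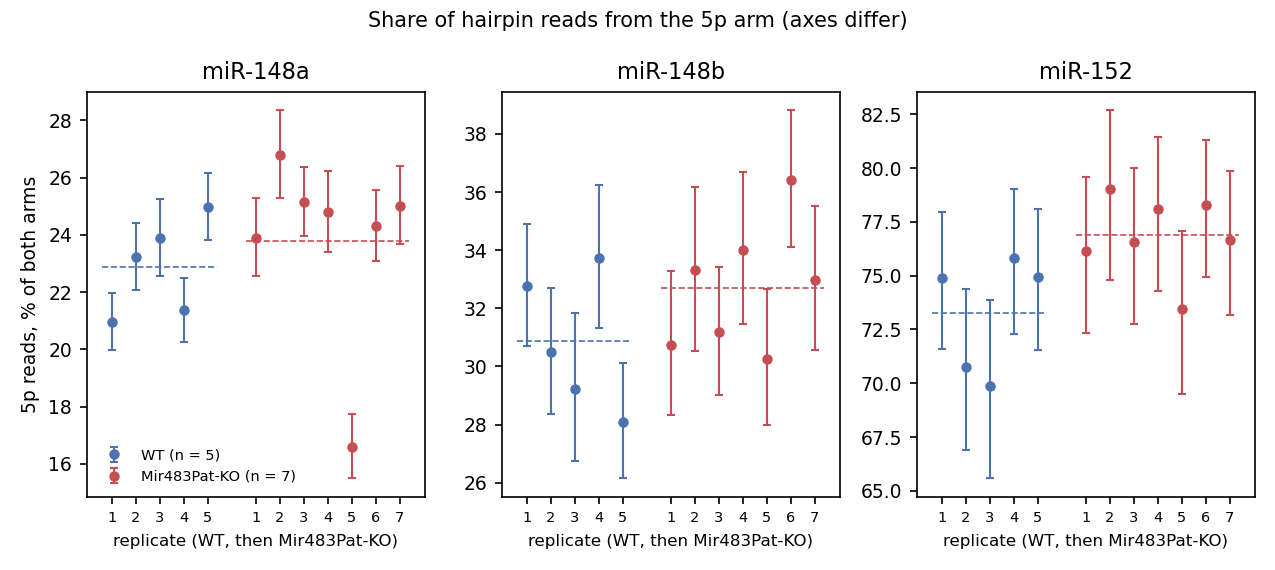
Percent of each hairpin's reads that came from the 5p arm, by fetus, with 95% Wilson intervals for counting error and dashed lines at the genotype means; the 3 vertical axes differ and do not start at 0. Mir483Pat-KO replicate 5 lies at 16.6% for miR-148a, below every other library, and the lowest miR-152 value is 69.9%.

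The question for each arm ratio was whether it moved when Mir483 was lost. The log2 ratio of 3p to 5p was 1.76 ± 0.14 (SD, n = 5) among WT livers and 1.69 ± 0.29 (SD, n = 7) among Mir483Pat-KO livers for miR-148a, so that Mir483Pat-KO minus WT was -0.063 (exact permutation over libraries, two-sided, p = 0.682, or 0.897 when adjusted by Benjamini-Hochberg over 95 hairpins). Without Mir483Pat-KO replicate 5 this difference was -0.17 (exact permutation p = 0.0260, adjusted 0.190), so this 1 liver set its size. For miR-148b the ratio was 1.17 ± 0.16 (SD, n = 5) and 1.04 ± 0.14 (SD, n = 7), a difference of -0.12 (exact permutation p = 0.179, adjusted 0.516). For miR-152 it was -1.46 ± 0.20 (SD, n = 5) and -1.73 ± 0.15 (SD, n = 7), a difference of -0.28 (exact permutation p = 0.0278, adjusted 0.188), and 6 of 7 Mir483Pat-KO livers were below every WT liver.

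None of the 95 hairpins passed an adjusted p of 0.05 by this exact permutation test, whose smallest possible p is 0.00253, while 18 of them (18.9%) had an unadjusted p under 0.05. The miR-152 ratio is 1 of those 18, and its p ranked 14th. The ratio was lower in Mir483Pat-KO for all 3 family hairpins, as it was for 43.2% of the hairpins. Within the fetuses of the lower animal-number range, 4 of each genotype, the differences were -0.22 for miR-148a, -0.051 for miR-148b and -0.35 for miR-152. There the exact permutation p was 0.0286 for both miR-148a and miR-152 (adjusted 0.302 for each). That is the smallest p a test of 4 against 4 can give, so passing 0.05 after adjustment was hardly possible. For miR-148b the exact permutation p was 0.543 (adjusted 0.892). The upper range holds 1 WT and 3 Mir483Pat-KO fetuses, too few for such a comparison. The libraries' index numbers are 37 to 41 for WT and 42 to 48 for Mir483Pat-KO, so index order and genotype cannot be told apart.

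For the levels themselves, none of the 4 members was called between genotypes by edgeR's quasi-likelihood F-test at an adjusted p under 0.05 over all 388 miRs, where 2.06% of the miRs tested were called, 1.03% higher and 1.03% lower in Mir483Pat-KO. By sign alone 2 of the 4 were higher in Mir483Pat-KO, against 50.3% of all. None had an unadjusted p under 0.05 either, against 17.5% of all miRs tested, and DESeq2 and limma-voom called none of the 4, against 6.96% and 2.58% of all. The log2 fold change of miR-148a-3p was -0.032 (standard error 0.063, 95% interval -0.17 to 0.10, adjusted p = 0.855 from edgeR, Benjamini-Hochberg over all miRs tested), and the same fit gave each value that follows. miR-148a-5p was at 0.040 (95% interval -0.15 to 0.23), miR-148b-3p at 0.051 (95% interval -0.13 to 0.23) and miR-152-3p at -0.057 (95% interval -0.27 to 0.16). These intervals hold 0, and on the linear scale they leave room for miR-148a-3p to be between 0.892 and 1.07 times its WT level and miR-152-3p between 0.827 and 1.12 times. The median over all tested miRs was 0.0028. The signs of miR-148a-5p and miR-148b-3p turned with library size alone as the scaling, and miR-148b-3p also turned with the index number as a covariate.

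Without Mir483Pat-KO replicate 5, miR-148a-5p was at 0.10 (standard error 0.060) and miR-148a-3p at -0.068 (standard error 0.059), both more than 1.5 times their values in all 12 libraries, and neither was called. In the lower animal-number range alone the log2 fold changes were -0.11 for miR-148a-3p, 0.12 for miR-148a-5p, 0.095 for miR-148b-3p and -0.18 for miR-152-3p, again without a call.

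The partner arms of miR-148b-3p and miR-152-3p were not called either. miR-148b-5p was at 542, 547, 478, 511 and 559 CPM in WT replicates 1 to 5 and between 555 and 662 CPM in Mir483Pat-KO, with 6 of 7 livers above every WT liver. Its log2 fold change was 0.18 (standard error 0.065, 95% interval 0.041 to 0.32, unadjusted p = 0.0141, adjusted p = 0.176 in edgeR). miR-152-5p was at 456, 414, 437, 502 and 510 CPM in WT and between 452 and 639 CPM in Mir483Pat-KO, with 4 of 7 livers above every WT liver. Its log2 fold change was 0.21 (standard error 0.086, 95% interval 0.029 to 0.40, unadjusted p = 0.0257, adjusted p = 0.191 by the same edgeR test). An unadjusted p under 0.05 with a higher level in Mir483Pat-KO was held by 9.54% of all miRs tested. When the library index number entered the fit, miR-148b-5p was at 0.065 (standard error 0.12) and miR-152-5p at -0.046 (standard error 0.15). Because index order follows genotype, that fit cannot tell one from the other. miR-148b-5p was at 0.12 without WT replicate 3 (edgeR, unadjusted p = 0.0895) and at 0.11 by library size alone (unadjusted p = 0.123). miR-152-5p was at 0.15 without WT replicate 2 (edgeR, unadjusted p = 0.133) and at 0.14 by library size alone (unadjusted p = 0.134).

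**Figure D4:**
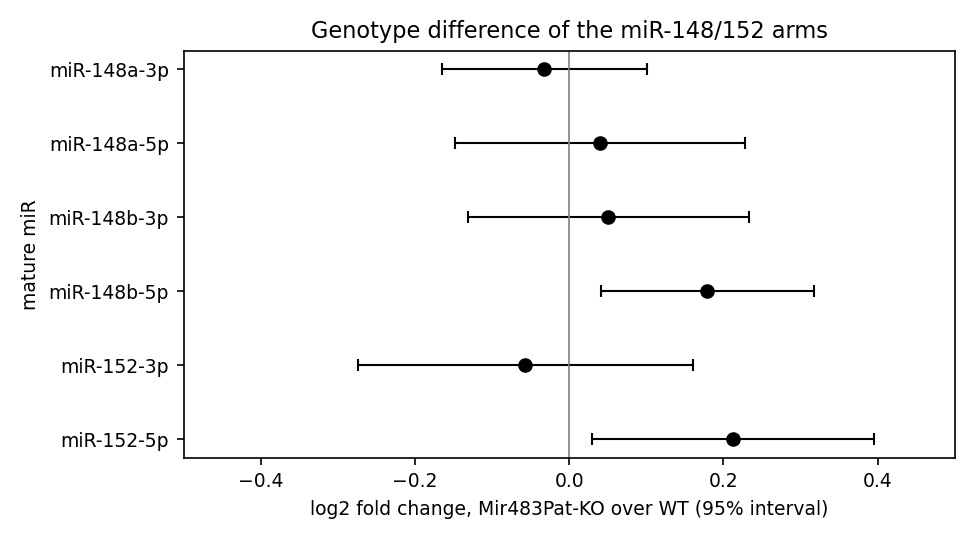
Log2 fold change (Mir483Pat-KO over WT, horizontal axis) with its 95% interval for the 4 members and the 2 partner arms, from the edgeR fit over 388 miRs. The intervals of the 4 members cross 0, those of miR-148b-5p (0.18) and miR-152-5p (0.21) do not, and none is called after adjustment.

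Marker miRs of other cell types are given beside these values. No marker was called in any list. The 4 erythroid entries were miR-451a, both arms of miR-144 and the joint miR-486a/b 5p entry. Their summed level lay between 23848 and 31974 CPM for WT and between 25913 and 37810 CPM for Mir483Pat-KO. Their median log2 fold change was 0.19, with positive values for all 4. miR-144-3p was at 0.34 (unadjusted p = 0.0232 in edgeR) and the joint miR-486a/b entry at 0.25 (unadjusted p = 0.0168 in edgeR). miR-451a at 0.13 and miR-144-5p at 0.10 had unadjusted p-values of 0.152 and 0.380 by the same edgeR test. Of 5 white blood cell miRs 3 were tested, with sums between 11032 and 14582 CPM for WT and between 13119 and 14751 CPM for Mir483Pat-KO and a median of 0.14. The untested miR-150-5p (0 to 16 counts per library) and miR-155-5p (0 to 298 counts per library) did not pass the filter. The pair of miR-122 arms summed to between 127212 and 161575 CPM in WT and between 118898 and 170206 CPM in Mir483Pat-KO. The 6 mesenchymal miRs had a median of -0.039 with members on both sides, from -0.32 for miR-214-3p to 0.47 for the joint miR-199a/199b 3p entry (unadjusted p = 0.0139 in edgeR), and sums between 30505 and 34539 CPM for WT and between 31317 and 36420 CPM for Mir483Pat-KO. The 5 biliary miRs had a median of 0.12, from -0.29 for miR-429-3p (unadjusted p = 0.0404 in edgeR) to 0.39 for miR-200a-3p (unadjusted p = 0.00345 in edgeR). Their mean sum was 0.893 times that of WT, opposite in direction to the median, with ranges of 1190 to 1996 CPM for WT and 1179 to 1659 CPM for Mir483Pat-KO. The 2 endothelial arms of miR-126a had a median of -0.19 and sums between 953 and 1261 CPM for WT and between 725 and 1221 CPM for Mir483Pat-KO. Of 4 neural and muscle entries only miR-9-5p was tested, at 66.3 ± 41.6 CPM (SD, n = 5) among WT livers and 99.2 ± 177 CPM (SD, n = 7) among Mir483Pat-KO livers. The level of miR-9-5p reached 499.97 CPM in 1 Mir483Pat-KO liver, which raised that mean and SD. The part of cell composition in the levels of miR-148b-5p and miR-152-5p was not tested.

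Related miRs were listed by function and by seed. The seed of the miR-130 and miR-301 group is AGUGCAA, which overlaps the family seed CAGUGCA over 6 bases (AGUGCA) at an offset of 1. Of 7 mature miRs with that seed in the RefSeq table, 3 were tested and 4 had no count. miR-301a-3p was at 2713 ± 380 CPM (SD, n = 5) among WT livers and 2681 ± 128 CPM (SD, n = 7) among Mir483Pat-KO livers, below miR-148a-3p and above miR-148b-3p. miR-130a-3p was at 1428 ± 159 and 1311 ± 172 CPM and miR-130b-3p at 715 ± 46.2 and 706 ± 62.6 CPM. None of these 3 was called, and their log2 fold changes ran from -0.12 to -0.016 with a median of -0.017.

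The miR-29 family, known for repressing the de novo DNA methyltransferases Dnmt3a and Dnmt3b, was scarce beside miR-148a-3p. miR-29a-3p was at 137 ± 24.5 CPM (SD, n = 5) among WT livers and 131 ± 15.9 CPM (SD, n = 7) among Mir483Pat-KO livers, below miR-152-3p, and miR-29b-3p and miR-29c-3p were lower still. None of the 3 was called, with a median log2 fold change of -0.021. Among 5 hepatocyte miRs none was called and the median was 0.0099. The largest of them, miR-122-5p, was at 139392 ± 13308 CPM (SD, n = 5) among WT livers and 140351 ± 16687 CPM (SD, n = 7) among Mir483Pat-KO livers, and miR-192-5p at 40999 ± 4891 and 42986 ± 3658 CPM.

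How far the family members moved together from fetus to fetus was described by the SD, over 12 libraries, of the log2 ratio of a pair of miRs, which needs no scaling and is small for miRs that keep a constant proportion. Candidates were the tested miRs whose log2 CPM averaged 8 or more. For miR-148a-3p the closest of 142 candidates were miR-24-2-5p at 0.087, miR-25-3p at 0.089 and miR-140-3p at 0.091, against a median of 0.18 over all candidates. miR-148b-3p stood at 0.16 from miR-148a-3p, rank 57, and the partner arm miR-148a-5p at 0.23, rank 108. That last rank includes Mir483Pat-KO replicate 5, which stood apart in this pair. miR-152-3p, too scarce to be a candidate, stood at 0.17, where counting alone gives 0.13. Among the candidates, the family was therefore not the closest company of its main member.

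For miR-148b-3p the closest were miR-99b-5p at 0.099, the hepatic miR-192-5p at 0.10 and the joint miR-27a/27b 3p entry at 0.11. Here miR-148a-3p had rank 28 and miR-148b-5p, from the same hairpin, rank 22 of 142. For miR-152-3p the closest of 143 were miR-351-5p at 0.12, miR-25-3p at 0.15 and miR-411-3p at 0.15, and miR-148a-3p followed at rank 13 with 0.17. Counting alone gives SDs of 0.13, 0.13, 0.15 and 0.13 for miR-152-3p against these miRs, in the order named. A large part of each value, and so of their order, is therefore at the level of counting error. For miR-148a-5p the closest of 142 were miR-17-5p at 0.13, miR-434-3p at 0.15 and miR-369-5p at 0.16, and miR-148a-3p, cut from the same hairpin, had rank 86. The measure favours miRs that vary little, and all candidates share the same 12 libraries.

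Without Mir483Pat-KO replicate 5 the SD of the log2 ratio of the miR-148a arms was 0.14 in place of 0.23, where counting alone gives 0.052. For the arms of miR-148b it was 0.16 with and without that liver, and for those of miR-152 0.22 in both cases, with 0.081 and 0.14 from counting.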

How the data were processed

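Small RNA libraries from 12 livers (5 WT, 7 Mir483Pat-KO, 1 per fetus) were made with the TruSeq Small RNA kit, and the authors aligned and counted the reads with miRge. The deposited values are raw counts, 1 per mature miR and library. The miR reference and the adapter trimming are not given in the sources used here. Groups and replicate numbers came from the sample labels. Columns were matched by the number in their name, read as an animal number, and by library index. Which fetuses shared a litter is not stated. None of 31 pairs of libraries of one genotype agreed within counting error (chi-square per degree of freedom 5.54 to 46.4).

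miRs were kept by filterByExpr (minimum count 10, minimum total 15), which left 388 of 682 with a count, scaled by TMM (factors 0.960 to 1.07), and compared in R 4.3.3 with edgeR 4.0.16 (glmQLFit with legacy = TRUE, glmQLFTest). The design held genotype only, and p-values were adjusted by Benjamini-Hochberg over all miRs tested. Intervals are the log2 fold change plus or minus the 95% t quantile times a standard error taken from the F statistic. Arm ratios are log2((3p + 0.5)/(5p + 0.5)) per library, compared by two-sided exact permutation tests (SciPy 1.17.1) and adjusted over all 95 hairpins with both arms tested, in place of the 3 family hairpins first planned. Code was tested on simulated data. Sequences are from RefSeq on GRCm38.p6, in which all 6 arms matched by name, and positions from GENCODE on GRCm38. Figures were drawn with matplotlib 3.10.9.

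miRs named are the 4 members, their partner arms, the 3 miRs closest to each shared-seed member, and up to 3 of each list of related miRs. The miRs closest to miR-148a-5p, the marker miRs named and those that stood apart in 1 library fall outside this rule and were named after their values were seen. The members, lists, rules and alternatives were chosen with earlier results of these data known. The alternatives were RLE, upper-quartile and library-size scaling, 2 other filters, DESeq2 1.42.0, limma-voom 3.58.1, edgeR 4's own dispersion, a block on replicate number, the range of the animal numbers, the library index, and each fetus left out in turn.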

Additional observations from a re-analysis of the deposited data

Results flagged for a closer look

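Of 20 groups examined (10 measures in each genotype), 2 held a library that lay farther from the rest than the limit for a group of its size, and both were Mir483Pat-KO replicate 5. Chance gives such a gap in about 1 group in 20, and the 2 measures share the same 694 counts. miR-148a-5p was at 913 CPM in this liver, while the other 6 Mir483Pat-KO livers lay between 1221 and 1400 CPM. The log2 ratio of miR-148a-3p to miR-148a-5p was 2.33, against 1.45 to 1.67 in the other 6. The other tested miRs that stood apart in this library, named after their values were seen, were the joint let-7a-1-3p/7c-2-3p entry at 114 CPM (17.0 to 24.9 in the other 6) and miR-191-3p at 0 (10.2 to 15.4 in the other 6). A cause was not tested.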

How the results depend on the processing

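None of the 4 members or 3 arm ratios was past an adjusted p of 0.05 under any alternative that gives a test. Not every one of these tests could have passed for the arm ratios. The replicate block, with 5 shared replicate numbers, cannot reach an unadjusted p of 0.05 there. In the lower animal-number range the smallest possible exact permutation p is 0.0286 before adjustment. The counts summed by genotype and the index covariate give the arm ratios a value without a test. miR-148a-3p (-0.11 to -0.025) and miR-152-3p (-0.29 to -0.048) kept their sign under all 12 alternatives other than leaving out a fetus. With library size alone miR-148a-5p went to -0.029 and miR-148b-3p to -0.021. With the index number as a covariate miR-148b-3p went to -0.013 (standard error 0.16) and miR-152-5p to -0.046 (standard error 0.15). Index order follows genotype, so the covariate fit cannot tell one from the other. Library size alone also moved the median of all miRs to -0.063. The TMM factors that this setting leaves out differed by genotype. They were 0.962 in WT replicate 1, 1.02 to 1.07 in the other WT libraries and 0.960 to 0.994 in Mir483Pat-KO. Neither the cause of that difference nor that of the turns with the index number was tested. With 1 fetus left out, miR-148a-5p ranged from -0.0041 to 0.10, miR-148b-3p from -0.0076 to 0.13, miR-148a-3p from -0.078 to -0.0090, miR-152-3p from -0.11 to -0.030, and the log2 difference of the summed shared-seed level from -0.048 to 0.0039. The negative value of miR-148a-5p was without Mir483Pat-KO replicate 2 and that of miR-148b-3p without WT replicate 4. miR-148b-5p ranged from 0.12 (without WT replicate 3) to 0.20 and miR-152-5p from 0.15 (without WT replicate 2) to 0.25. The arm ratio of miR-148a ranged from -0.17 (without Mir483Pat-KO replicate 5) to -0.023, that of miR-148b from -0.17 to -0.076 and that of miR-152 from -0.32 to -0.22.

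The replicate numbers are those of different animals. Same-numbered fetuses did not deviate together (correlations of deviations across miRs from -0.25 to 0.23), so the numbers do not pair the samples. With the replicate block the log2 fold changes were -0.029 for miR-148a-3p, 0.0037 for miR-148a-5p, 0.071 for miR-148b-3p and -0.11 for miR-152-3p, and the arm ratio differences -0.031, -0.071 and -0.26. The block made no call among the members, and its test of the arm ratios could not have made one. Depth limits miR-152-3p most, at 86 to 178 counts per library.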
